A study of Mus musculus with 6 samples.

Results

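The genes described here are 10 that encode the NF-kappaB transcription factors, their inhibitors and a receptor that activates them, followed across mouse lung endothelial cells, the cells that line the vessels of the lung. They were chosen by name (Nfkbia, Nfkbib, Nfkbie, Nfkb1, Nfkb2, Rel, Rela, Relb, Tnfaip3 and Tlr4) from the 24520 genes of the deposited tables; each of the 10 matched 1 row, and each passed the filter on low counts, which left 14667 genes. The cells were sorted by flow cytometry from lungs of mice labelled knockout (KO) or wild type (WT) for Dnmt3a, which encodes an enzyme that sets new DNA methylation, and 3 RNA libraries carry each label. The sources used here do not state the Dnmt3a allele, the driver of any Cre, the mice's age, the sorting gate or whether each library stands for a different mouse, and they name no treatment for either group. The p-values below therefore measure the spread between these libraries, which may be technical in part.

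NF-kappaB is a family of dimers built from the subunits encoded by Rela, Rel, Relb, Nfkb1 and Nfkb2, of which the last pair encode long precursors that are cut to the DNA-binding forms. In resting cells IkappaB proteins, encoded by Nfkbia, Nfkbib and Nfkbie, hold the dimers in the cytoplasm; cytokine or bacterial signals lead to their phosphorylation and breakdown, the dimers enter the nucleus, and among the genes they switch on are Nfkbia and Tnfaip3, whose products shut the pathway off again. In endothelium this loop is known for the induction of leukocyte adhesion molecules and chemokines, and Tlr4, the receptor for bacterial lipopolysaccharide, is one of its triggers.

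Endothelial RNA was abundant in every library. The 10 endothelial markers summed to 14916 to 17707 CPM (counts scaled to a common library size with TMM factors) in the KO libraries and 15200 to 18857 CPM in the WT libraries, and library totals ran from 28136194 to 39999172 estimated counts. Dnmt3a itself ran against the labels, at 172, 161 and 161 CPM in the libraries labelled KO and 37.6, 36.5 and 31.8 CPM in those labelled WT (log2 fold change 2.22, SE 0.11, edgeR adjusted p = 0.00157). A sum over the whole gene does not show whether some exons were deleted, so KO and WT below are the names of the labels, and each direction is KO against WT by label. Markers of other cells were measured in the same libraries. The 9 fibroblast markers summed to 301 to 443 CPM in the KO libraries and 145 to 204 CPM in the WT libraries, without overlap, 8 of 9 with a positive log2 fold change. The 19 leukocyte markers summed to 71.7 to 282 CPM in the KO libraries and 56.8 to 2164 CPM in the WT libraries, the top value being WT replicate 3 through the MHC class II chain Cd74; 4 of 10 tested had a positive log2 fold change. Whether myeloid RNA was present is not settled by this list. Lyz2 was at 25.4 to 182 CPM in the KO libraries and 12.5 to 423 CPM in the WT libraries. Like the alveolar type 2 marker Sftpc (7762 and 173 CPM), it was highest in WT replicate 1 and lowest in WT replicate 2. Lyz2 alone therefore does not show myeloid RNA. Mrc1 was at 1.46 to 2.77 CPM in the KO libraries and 1.94 to 4.27 CPM in the WT libraries. Itgax, Csf1r and Marco of the same list had no count in any library. The 8 alveolar type 2 markers summed to 769 to 3635 CPM in the KO libraries and 331 to 9370 CPM in the WT libraries, and 0 of 8 had a positive log2 fold change. The part of these cells in the values below was not tested, and in bulk RNA fewer cells of a type and less RNA per cell cannot be told apart.

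The promoters of the feedback genes are shown first, because the loop runs through them. RefSeq windows on GRCm38.p6, from 250 bases before to 50 bases after a transcript start, were matched for 7 of the 10 genes (10 windows), and searched on both strands for the kappaB decamer consensus, the sequence that NF-kappaB dimers recognise. At least 1 match was found for 5 of these 7 genes, in Nfkbia, Nfkbie, Nfkb2, Rel and Tnfaip3 but not in the windows of Rela or Nfkbib; of all 27025 genes with a window, 9.55% had one. By window, 7 of the 10 held a match, against 8.46% of all 32851 windows; windows of 1 gene can overlap and share a match. The genes were chosen by name for their part in this pathway, so their share is no test against all genes. A match describes letters only, and bears on no binding here. Below, capitals mark the matches, and the windows are those of the inhibitor with the highest level, its counterpart Tnfaip3, the precursor gene Nfkb2 and the inhibitor Nfkbie.
Nfkbia, chr12:55492598-55492897, minus strand: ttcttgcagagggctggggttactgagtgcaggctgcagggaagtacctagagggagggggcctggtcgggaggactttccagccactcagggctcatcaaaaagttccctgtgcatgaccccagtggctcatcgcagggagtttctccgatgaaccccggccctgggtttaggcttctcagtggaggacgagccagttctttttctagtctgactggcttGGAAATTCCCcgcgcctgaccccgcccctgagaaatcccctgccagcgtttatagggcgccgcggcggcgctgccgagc
Tnfaip3, chr10:19015361-19015660, minus strand: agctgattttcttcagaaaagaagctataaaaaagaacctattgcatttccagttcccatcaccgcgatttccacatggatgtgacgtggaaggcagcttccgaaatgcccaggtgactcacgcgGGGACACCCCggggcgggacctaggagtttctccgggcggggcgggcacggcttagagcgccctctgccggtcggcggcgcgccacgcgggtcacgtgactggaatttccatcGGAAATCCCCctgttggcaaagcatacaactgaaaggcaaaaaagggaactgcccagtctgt
Nfkb2, chr19:46304487-46304786, plus strand: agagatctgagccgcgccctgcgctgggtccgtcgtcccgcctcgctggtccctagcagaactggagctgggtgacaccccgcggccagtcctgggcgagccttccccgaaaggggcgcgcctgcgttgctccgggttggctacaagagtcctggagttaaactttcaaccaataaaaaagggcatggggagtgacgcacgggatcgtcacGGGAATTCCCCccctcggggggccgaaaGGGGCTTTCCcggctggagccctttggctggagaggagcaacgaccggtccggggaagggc
Nfkbie, chr17:45555450-45555749, plus strand: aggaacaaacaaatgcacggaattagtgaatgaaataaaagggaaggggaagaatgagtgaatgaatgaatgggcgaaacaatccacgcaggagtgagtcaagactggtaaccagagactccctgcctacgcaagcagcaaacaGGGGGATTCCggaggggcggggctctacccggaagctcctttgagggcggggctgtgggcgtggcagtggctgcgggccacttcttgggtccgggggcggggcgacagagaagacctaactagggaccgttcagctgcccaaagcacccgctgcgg
The Nfkbia match, GGAAATTCCC, begins 29 bases before the start, and the matches of Tnfaip3 begin 125 and 12 bases before it. In the Nfkb2 window shown, a pair of overlapping matches begins 39 and 38 bases before the start and another begins 11 bases before it. Nfkb2 has 2 further windows, for starts downstream, which hold GGAATGTCCC and share GGGACTTTCC, and the second Tnfaip3 window holds no match. The single Nfkbie match, GGGGGATTCC, begins 106 bases before the start. In Rel 2 overlapping matches begin 92 and 91 bases before the start. The windows shown and that of Rel hold more CpG sites than the median of 7 over all windows. They hold 15 in Nfkbia, 22 in Tnfaip3, 25 in Nfkb2, 16 in Nfkbie and 42 in Rel. This is no trait of windows with a match, since those of Rela and Nfkbib, without a match, hold 31 and 20. The second Tnfaip3 window holds 6.

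Levels of the 10 genes were compared per length, in TPM. Nfkbia stood far above the others, at a mean of 558 TPM over the 6 libraries, followed by Nfkb1 at 81.6 TPM. Neither range overlapped the next gene's. Nfkbib (48.8 TPM) and Rela (47.0 TPM) came next and could not be ordered, since each was the higher of the pair in 3 of 6 libraries. Nfkb2 (14.0 TPM), Relb (12.3 TPM) and Tnfaip3 (11.6 TPM) had overlapping ranges as well. Nfkbie (6.68 TPM) and Rel (6.56 TPM) could not be ordered, and Tlr4 was lowest at 4.39 TPM, below Rel in all 6 libraries although their ranges overlapped. Among the 5 subunit genes Nfkb1 held 58.3%, 49.2% and 44.6% of the summed TPM in KO replicates 1, 2 and 3 and 54.5%, 48.1% and 48.9% in WT replicates 1, 2 and 3. Of the TPM of the 3 IkappaB genes, Nfkbia held 91.0%, 94.9% and 90.8% in KO replicates 1, 2 and 3 and 86.3%, 89.0% and 88.3% in WT replicates 1, 2 and 3.

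**Figure D1:**
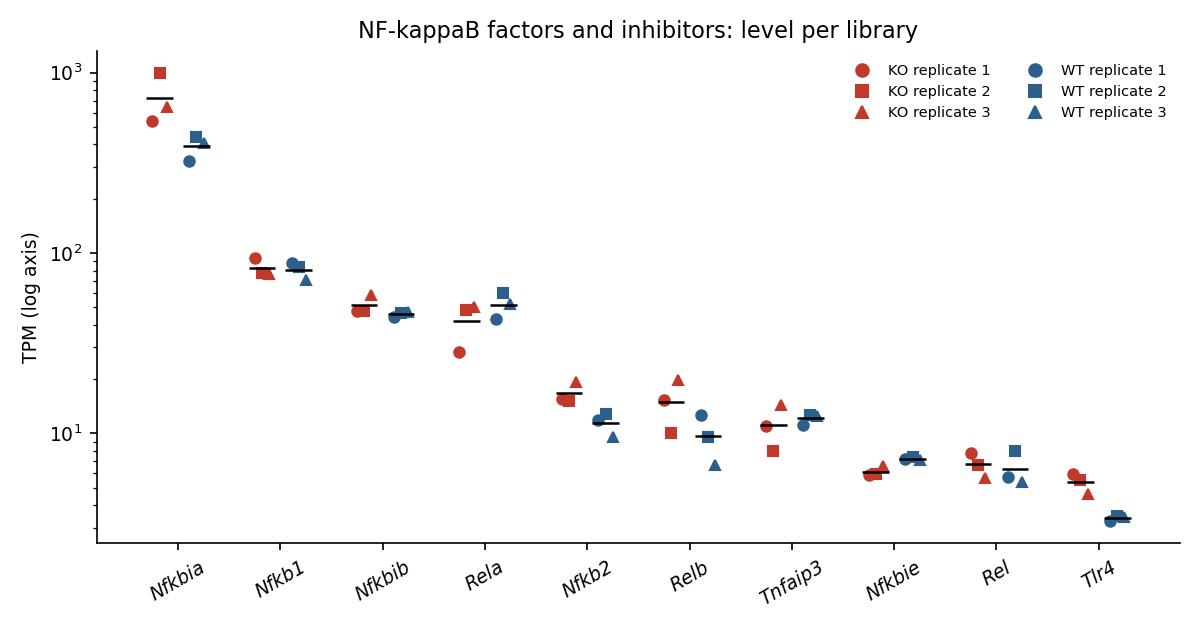
TPM of each gene (log axis) in each library, KO to the left of WT for each gene, with genes in order of their mean; short lines are the means of 3 libraries. Nfkbia lies between 538 and 993 TPM in the KO libraries and between 325 and 437 TPM in the WT libraries, above every other gene.

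None of the 10 genes passed the test between the labels. edgeR's quasi-likelihood test with Benjamini-Hochberg adjustment called 0 of 10 members at 0.05, where the background was 5 of 14667 genes (0.0341%). At an unadjusted p under 0.05 there were 3 members, Tlr4, Nfkbia and Nfkb2, all with the higher level in the KO libraries; the background was 12.6% in either direction and 6.88% in that direction. The CPM of the groups did not overlap for 4 members, 3 higher (Nfkbia, Nfkb2 and Tlr4) and 1 lower (Nfkbie), against 20.3% of all genes tested in either direction, 10.9% higher and 9.42% lower. DESeq2, run as an alternative, called 2 of 10, Nfkbia (adjusted p = 0.0429) and Tlr4 (adjusted p = 0.0494). Its background was 407 of the 15212 genes to which it gave an adjusted p (2.68% in either direction, 1.41% higher). The median log2 fold change of the 10 genes was 0.05, and that of all genes tested was 0.01, with 6 members positive and 4 negative. The 10 genes thus had no common direction.

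**Figure D2:**
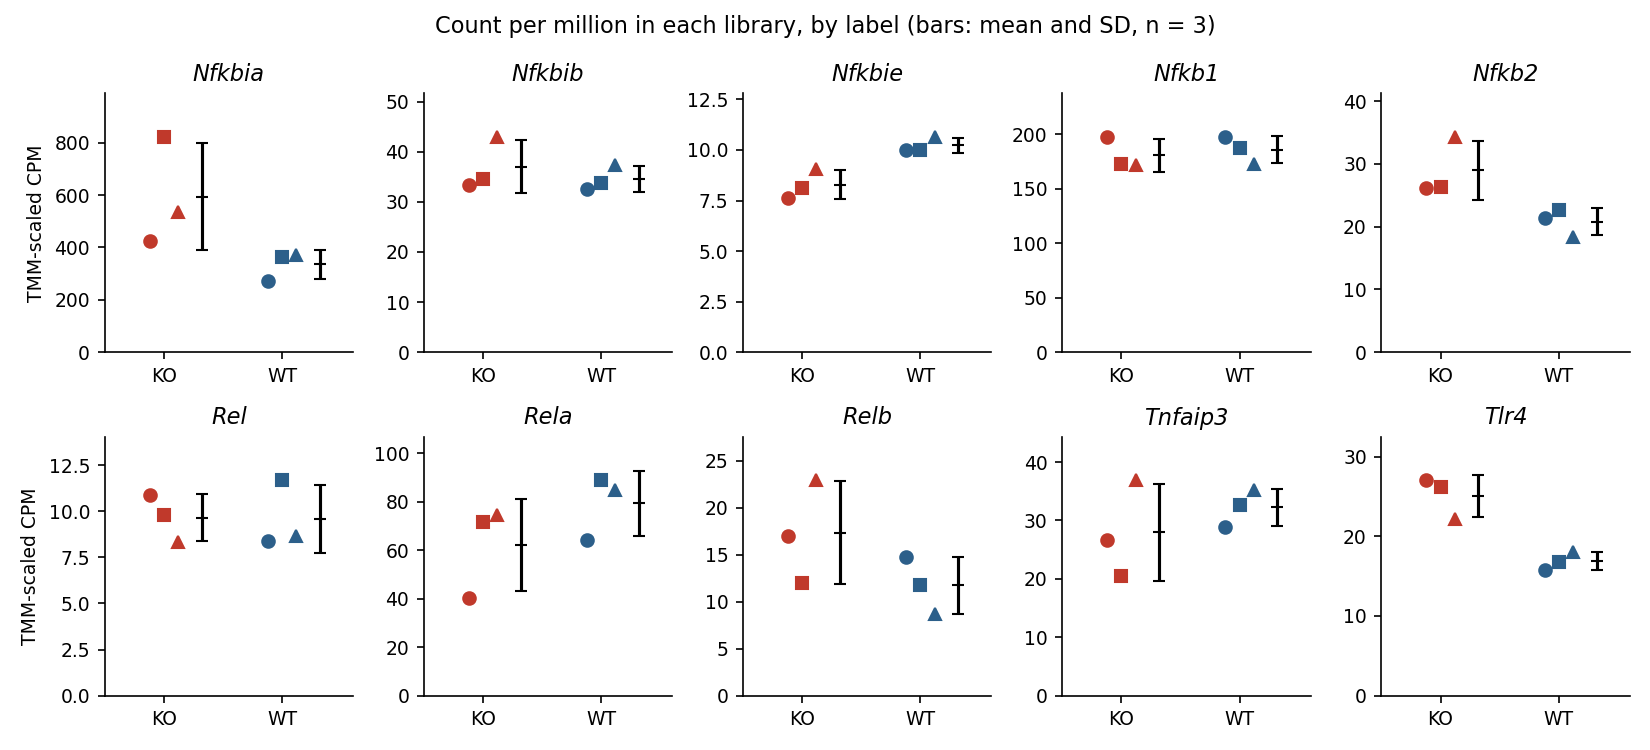
TMM-scaled CPM of each gene in each library, KO left and WT right; circles, squares and triangles are replicates 1, 2 and 3, and bars give the mean and SD of 3 libraries. The groups are apart for Nfkbia, Nfkbie, Nfkb2 and Tlr4 and overlap for the other 6 genes.

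The IkappaB genes did not share a direction between the labels, and edgeR called none of them. Nfkbia (ENSMUSG00000021025, mm10 chromosome 12, 55489410 to 55492647, minus strand) encodes IkappaB-alpha, the inhibitor that is broken down and made again within a cycle of activation. It had 12543, 24936 and 15836 estimated counts in KO replicates 1, 2 and 3 and 8963, 10737 and 14032 in WT replicates 1, 2 and 3. Scaled for depth, these were 424, 823 and 536 CPM in the KO libraries and 273, 364 and 372 CPM in the WT libraries. KO replicate 2 was the highest library, and the lowest KO library was still above the highest WT library. The means were 595 ± 206 CPM in the KO libraries and 336 ± 55.1 CPM in the WT libraries (SD, n = 3 each), a 1.77-fold difference (log2 fold change 0.82, SE 0.25, unadjusted p = 0.0133, edgeR adjusted p = 0.317). The value depended on KO replicate 2: without it the log2 fold change was 0.51 (adjusted p = 0.334).

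Nfkbie (ENSMUSG00000023947, chromosome 17, 45555703 to 45563169, plus strand) encodes IkappaB-epsilon, a later-acting inhibitor of the same family. It lay at 7.64, 8.12 and 9.07 CPM across KO replicates 1, 2 and 3, against 10.0, 10.0 and 10.7 CPM across WT replicates 1, 2 and 3. All 3 KO libraries were below all 3 WT libraries, by a small margin and at a low level. The log2 fold change was -0.31 (SE 0.18, edgeR adjusted p = 0.509). Nfkbib (ENSMUSG00000030595, chromosome 7, 28758251 to 28767512, minus strand) encodes IkappaB-beta. It was at 33.3, 34.6 and 43.0 CPM in the KO libraries and 32.5, 33.8 and 37.4 CPM in the WT libraries, and the groups overlapped (log2 fold change 0.10, SE 0.14, adjusted p = 0.798). In TPM its groups did not overlap, at 47.6 to 58.8 TPM in the KO libraries and 44.4 to 47.3 TPM in the WT libraries. Sirt2, on the opposite strand, overlaps Nfkbib and had 3275 to 5806 counts per library; no source used here says that strand was kept, so reads of the overlap cannot be told apart.

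Tnfaip3 (ENSMUSG00000019850, chromosome 10, 19000910 to 19015657, minus strand) encodes A20, a ubiquitin-editing enzyme that stops signalling upstream of the IkappaB kinases. In KO replicates 1, 2 and 3 it stood at 26.6, 20.4 and 36.9 CPM, against 28.9, 32.7 and 35.1 CPM in WT replicates 1, 2 and 3. The highest and the lowest value were both in KO libraries, and the groups overlapped (log2 fold change -0.20, SE 0.22, edgeR adjusted p = 0.723). The library with the most Nfkbia, KO replicate 2, was the one with the least Tnfaip3. Relative to Nfkbia in TPM, Tnfaip3 stood at 0.0204, 0.00806 and 0.0223 in KO replicates 1, 2 and 3 and at 0.0343, 0.0291 and 0.0306 in WT replicates 1, 2 and 3, without overlap. Nfkbia was without overlap on its own, so this ratio is no separate result. Of the 45 pairs among the 10 genes, Nfkbia and Tnfaip3 were the least alike across the 6 libraries. The root mean square difference between their centred log2 CPM was 0.69. The closest pair was Nfkb1 and Rel, at 0.17. This measure grows with a gene's spread, and Nfkbia had the largest ratio of highest to lowest library of the 10 (3.02). Its median difference from 10092 genes compared was 0.54, so the 0.69 does not single out Tnfaip3.

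Of the subunit genes, Nfkb1, Rel and Rela overlapped between the labels, and Nfkb2, of the non-canonical branch, did not. Nfkb1 (ENSMUSG00000028163, chromosome 3, 135584655 to 135691547, minus strand), which encodes the p105 precursor, had the smallest ratio of its highest to its lowest library among the 10 genes (1.15), at 198, 172 and 172 CPM in the KO libraries and 197, 187 and 172 CPM in the WT libraries (log2 fold change -0.04, SE 0.11, edgeR adjusted p = 0.906). Rel (ENSMUSG00000020275, chromosome 11, 23736847 to 23770970, minus strand), which encodes c-Rel, a subunit best known from lymphocytes, was at 10.9, 9.77 and 8.33 CPM in the KO libraries and 8.40, 11.7 and 8.64 CPM in the WT libraries (log2 fold change 0.01, SE 0.22, adjusted p = 0.987). Rela (ENSMUSG00000024927, chromosome 19, 5637483 to 5648130, plus strand) encodes p65, the main activating subunit. Its level was 40.3, 71.6 and 74.4 CPM across KO replicates 1, 2 and 3, against 64.1, 88.9 and 85.0 CPM across WT replicates 1, 2 and 3. KO replicate 1 was the lowest library, and the groups overlapped through WT replicate 1 (log2 fold change -0.35, SE 0.25, adjusted p = 0.567). Without KO replicate 1 the log2 fold change was -0.13.

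Nfkb2 (ENSMUSG00000025225, chromosome 19, 46304320 to 46312385, plus strand) encodes the p100 precursor, whose processing to p52 is the step that defines the non-canonical branch. It had 773, 798 and 1014 estimated counts in KO replicates 1, 2 and 3 and 700, 671 and 693 in WT replicates 1, 2 and 3, or 26.1, 26.3 and 34.3 CPM in the KO libraries and 21.3, 22.7 and 18.4 CPM in the WT libraries. All KO libraries were above all WT libraries, KO replicate 3 most of all. The means were 28.9 ± 4.67 CPM in the KO libraries and 20.8 ± 2.21 CPM in the WT libraries (SD, n = 3 each; log2 fold change 0.48, SE 0.17, unadjusted p = 0.0226, edgeR adjusted p = 0.336). Psd, on the opposite strand, overlaps the end of Nfkb2 but had only 78 to 162 counts per library. Relb (ENSMUSG00000002983, chromosome 7, 19606217 to 19629438, minus strand) encodes the partner of p52. Its level was 17.0, 12.1 and 23.0 CPM across KO replicates 1, 2 and 3, against 14.8, 11.7 and 8.72 CPM across WT replicates 1, 2 and 3. KO replicate 3 was again the highest library, and KO replicate 2 lay inside the WT range (log2 fold change 0.56, SE 0.29, adjusted p = 0.452). The value of Relb without KO replicate 3 was 0.31 on the log2 scale, and without KO replicate 2 it was 0.77.

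Tlr4 (ENSMUSG00000039005, chromosome 4, 66827584 to 66930284, plus strand) had the smallest p of the 10. It had 800, 793 and 653 estimated counts in KO replicates 1, 2 and 3 and 520, 494 and 681 in WT replicates 1, 2 and 3. Scaled for depth these were 27.1, 26.2 and 22.1 CPM in the KO libraries and 15.8, 16.7 and 18.1 CPM in the WT libraries. The spread within each label was small and the groups were apart, with means of 25.1 ± 2.64 CPM in the KO libraries and 16.9 ± 1.12 CPM in the WT libraries (SD, n = 3 each). The difference was 1.49-fold (log2 fold change 0.57, SE 0.15, unadjusted p = 0.0052, edgeR adjusted p = 0.282), 266th of 14667 genes by p, and the log2 fold change stayed between 0.51 and 0.66 when each library was left out in turn. The genes of its receptor complex, named here after their values were seen, overlapped between the labels. Ly96, which encodes the co-receptor MD-2, was at 6.56 to 7.14 CPM in the KO libraries and 5.42 to 9.52 CPM in the WT libraries. Cd14, which hands lipopolysaccharide to the complex and is also a monocyte marker, was at 2.37 to 4.49 CPM in the KO libraries and 1.05 to 9.59 CPM in the WT libraries. Like Lyz2 and Sftpc, Cd14 was highest in WT replicate 1 and lowest in WT replicate 2, and its cell source was not tested.

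**Figure D3:**
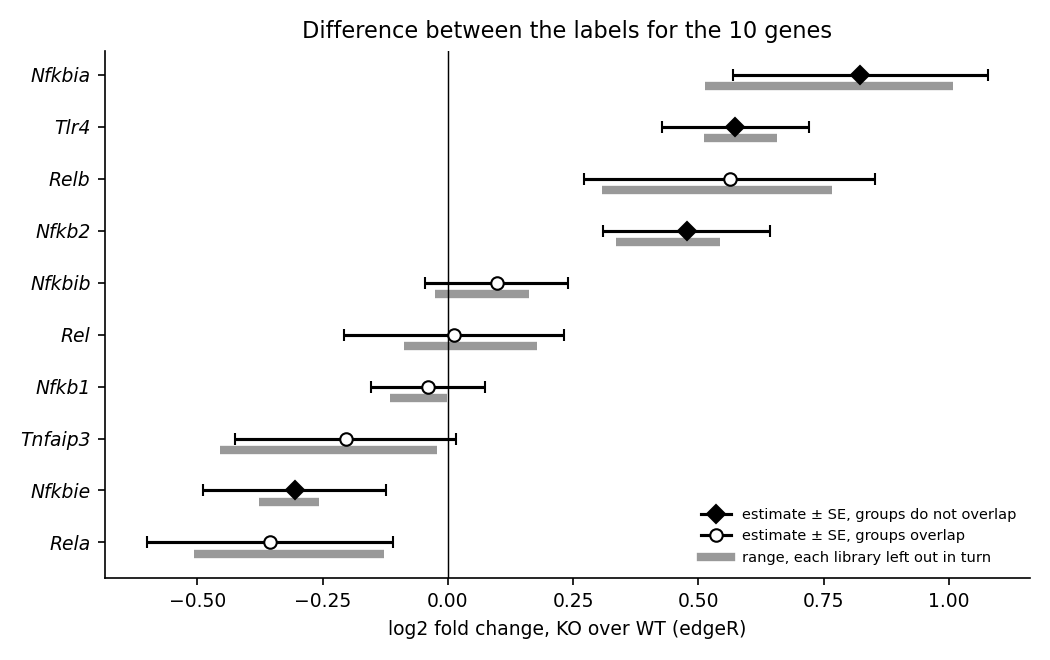
Log2 fold change of KO over WT for each gene (edgeR, all 6 libraries) with its SE; filled diamonds are genes whose groups do not overlap, and grey bars span the values when each library is left out in turn. Nfkbia, Tlr4, Relb and Nfkb2 lie above 0.4 with adjusted p of 0.282 to 0.452, and Nfkbia has the longest positive bar, 0.51 to 1.01.

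Inhibitor RNA was also set against subunit RNA within each library. Ratios with Nfkbia restate in part the difference of that gene, which edgeR did not call. Nfkbia exceeded Rela in TPM by a ratio of 19.1, 20.6 and 12.8 in KO replicates 1, 2 and 3 and of 7.57, 7.27 and 7.85 in WT replicates 1, 2 and 3. The WT ratios were almost equal, 7.56 ± 0.293, whereas the KO ratios spread over 17.5 ± 4.14 (SD, n = 3 each). In KO replicate 1 the ratio was high with the lowest Rela, and in KO replicate 2 with the highest Nfkbia. The 3 IkappaB genes together stood at 3.69, 6.65 and 4.12 times the 5 subunit genes in KO replicates 1, 2 and 3 and at 2.35, 2.82 and 3.21 times in WT replicates 1, 2 and 3. The numerator carried this difference: the subunit genes summed to 163 ± 7.53 TPM in the KO libraries and 160 ± 15.0 TPM in the WT libraries (SD, n = 3 each), and Nfkbib and Nfkbie alone gave overlapping ratios, 0.334 to 0.381 in the KO libraries and 0.311 to 0.377 in the WT libraries. Relb relative to Rela overlapped, at 0.541, 0.208 and 0.396 in KO replicates 1, 2 and 3 and 0.294, 0.159 and 0.129 in WT replicates 1, 2 and 3. Nfkb2 relative to Nfkb1 was at 0.166, 0.194 and 0.253 in KO replicates 1, 2 and 3 and at 0.136, 0.153 and 0.134 in WT replicates 1, 2 and 3. Nfkb2, like Nfkbia, was without overlap on its own, so the ratios that hold either gene are no separate result. These ratios describe RNA, were chosen with earlier results known and were not tested.

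**Figure D4:**
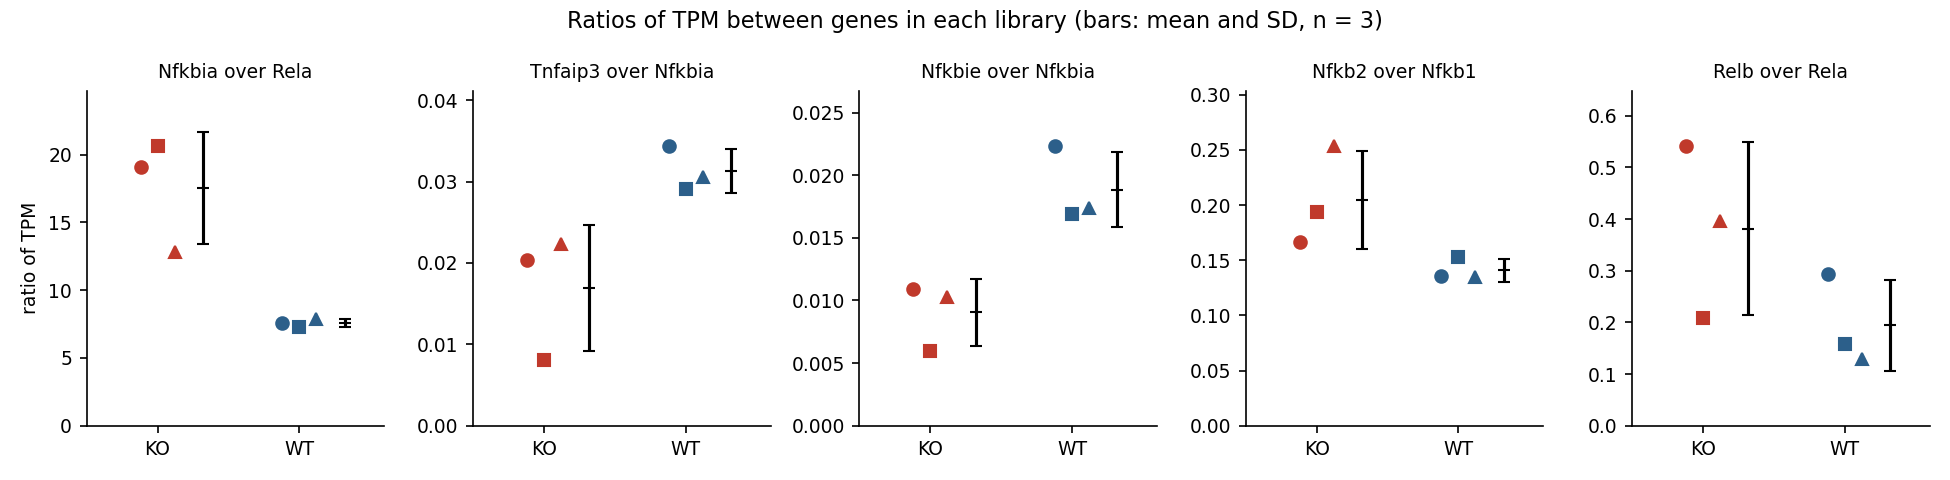
Ratios of TPM between pairs of genes in each library, KO left and WT right; circles, squares and triangles are replicates 1, 2 and 3, and bars give the mean and SD of 3 libraries. Nfkbia over Rela lies at 12.8 to 20.6 in the KO libraries and at 7.27 to 7.85 in the WT libraries. Of the ratios shown only Relb over Rela overlaps between the labels. The others each hold Nfkbia or Nfkb2, whose groups were apart on their own, so they are no separate result.

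The rest of the pathway was read from gene lists, and edgeR called 0 members in any of those below; counts at an unadjusted p under 0.05 are given, where the background was 6.88% higher and 5.77% lower. The nuclear IkappaB proteins, relatives of IkappaB-alpha that act on DNA-bound dimers, were all 3 on the positive side, with a median log2 fold change of 0.85 and 2 at an unadjusted p under 0.05. Nfkbiz was at 52.4, 48.2 and 59.7 CPM in the KO libraries and 40.3, 41.5 and 25.6 CPM in the WT libraries (log2 fold change 0.58, SE 0.20, adjusted p = 0.336). Bcl3, whose product binds p50 and p52, was at 7.64, 8.22 and 11.4 CPM in the KO libraries and 6.36, 5.15 and 3.58 CPM in the WT libraries (log2 fold change 0.85, SE 0.30, adjusted p = 0.336). Both were without overlap, and Nfkbid had only 1 to 40 counts per library.

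Receptors and co-receptors other than Tlr4 were mostly on the negative side, with 9 of 13 tested members negative, a median of -0.17, and 0 higher and 1 lower at an unadjusted p under 0.05. That member was Cd40, a receptor that feeds the non-canonical branch, at 98.8, 94.5 and 103 CPM in the KO libraries and 120, 130 and 186 CPM in the WT libraries (log2 fold change -0.56, SE 0.17, adjusted p = 0.32). Tnfrsf1a, the main TNF receptor and the most abundant of the list, was at 395 to 464 CPM in the KO libraries and 380 to 450 CPM in the WT libraries. Ltbr, the lymphotoxin receptor, was at 195 to 228 CPM in the KO libraries and 209 to 238 CPM in the WT libraries. Tlr1 and Tlr7 had no count in any library. Among adaptors and ubiquitin ligases (11 of 16 positive, median 0.06, 0 higher and 1 lower at an unadjusted p under 0.05), Tirap, which couples Tlr4 to Myd88, was at 63.4, 69.8 and 61.0 CPM in the KO libraries and 76.5, 86.2 and 108 CPM in the WT libraries (log2 fold change -0.48, SE 0.15, adjusted p = 0.31). Tradd, the adaptor of TNF receptor 1, was the member without overlap on the positive side (log2 fold change 0.35, SE 0.16).

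Of the kinases, 7 of 12 were positive, with a median of 0.09 and 1 higher and 0 lower at an unadjusted p under 0.05. Their summed level was 662, 712 and 732 CPM in KO replicates 1, 2 and 3, against 642, 650 and 650 CPM in WT replicates 1, 2 and 3, so that the sums lay apart by a small margin. Map3k8, a kinase that p105 holds inactive, was at 24.1, 36.9 and 23.7 CPM in the KO libraries and 17.5, 16.8 and 22.2 CPM in the WT libraries (log2 fold change 0.58, SE 0.22, adjusted p = 0.355). Map3k14, the kinase that starts p100 processing, was without overlap on the other side, at 14.1 to 17.2 CPM in the KO libraries and 17.3 to 18.5 CPM in the WT libraries (log2 fold change -0.19, SE 0.15). Ikbkb, the kinase that marks IkappaB for breakdown, had a log2 fold change of 0.18 (SE 0.15). Of the other negative regulators (10 of 15 positive, median 0.07, 1 higher and 1 lower at an unadjusted p under 0.05), Otud7b, a deubiquitinase that spares Traf3, was at 54.0, 63.8 and 64.8 CPM in the KO libraries and 40.8, 44.2 and 38.2 CPM in the WT libraries (log2 fold change 0.57, SE 0.12, edgeR adjusted p = 0.24). Among the pathway lists, leaving aside the 10 genes and the immediate-early genes below, Otud7b was also the 1 gene that DESeq2 called (adjusted p = 0.0169). Commd1, which promotes loss of p65 from chromatin, was lower without overlap (log2 fold change -0.32, SE 0.12, adjusted p = 0.359).

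Endothelial target genes of NF-kappaB lay more often on the positive side, 14 of 18 tested, where 7470 of all 14667 genes tested did. Their median was 0.31, with 5 higher and 0 lower at an unadjusted p under 0.05. Of the targets that the rule for naming picked, all but Bcl2l1 were without overlap, since the rule favoured such genes. Over the list, 4 were higher and 0 lower without overlap, against 10.9% and 9.42% of all genes tested. The adhesion genes Icam1, Vcam1 and Selp overlapped between the labels, with log2 fold changes of 0.28, 1.01 and 0.00. Irf1, an interferon regulatory factor, was at 295, 500 and 343 CPM in the KO libraries and 245, 253 and 284 CPM in the WT libraries (log2 fold change 0.54, SE 0.20, adjusted p = 0.352). Gadd45b, a stress response gene, was at 16.8, 55.7 and 18.5 CPM in the KO libraries and 8.98, 12.3 and 16.1 CPM in the WT libraries (log2 fold change 1.28, SE 0.48, adjusted p = 0.355). KO replicate 2 was the highest library for both, as it was for Nfkbia. Sele, the endothelial selectin, was at 10.5, 8.75 and 5.76 CPM in the KO libraries and 5.23, 2.30 and 4.85 CPM in the WT libraries (log2 fold change 1.01, SE 0.38, adjusted p = 0.356), and KO replicate 1 was its highest. Cx3cl1, the membrane-bound chemokine, had a log2 fold change of 0.55 (SE 0.20). Bcl2l1, a survival gene and the most abundant target, was at 301, 630 and 291 CPM in the KO libraries and 346, 403 and 497 CPM in the WT libraries, overlapping (log2 fold change -0.03, SE 0.31).

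Immediate-early genes, which respond to stimulation and to tissue dissociation within minutes, were measured beside these because Nfkbia is itself an early-response gene. Of 20 genes, 19 were positive, with a median of 0.70 and 11 higher and 1 lower at an unadjusted p under 0.05; edgeR called 0 and DESeq2 called 9. Their summed level was 3432, 4086 and 4499 CPM in KO replicates 1, 2 and 3 and 2763, 3982 and 2993 CPM in WT replicates 1, 2 and 3, overlapping. These sums include Nr4a1, the negative member and the most abundant of the list. It was at 354, 239 and 544 CPM in the KO libraries and 542, 929 and 521 CPM in the WT libraries (log2 fold change -0.81, SE 0.34, edgeR adjusted p = 0.388). Its large WT values weigh on the overlap of the sums. Hspa1a, a heat shock gene, was at 27.5, 40.9 and 37.7 CPM in the KO libraries and 7.15, 20.0 and 9.18 CPM in the WT libraries (log2 fold change 1.55, SE 0.38, adjusted p = 0.282); its near-identical copy Hspa1b can share its reads. The part of handling in the values of Nfkbia was not tested.

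**Figure D5:**
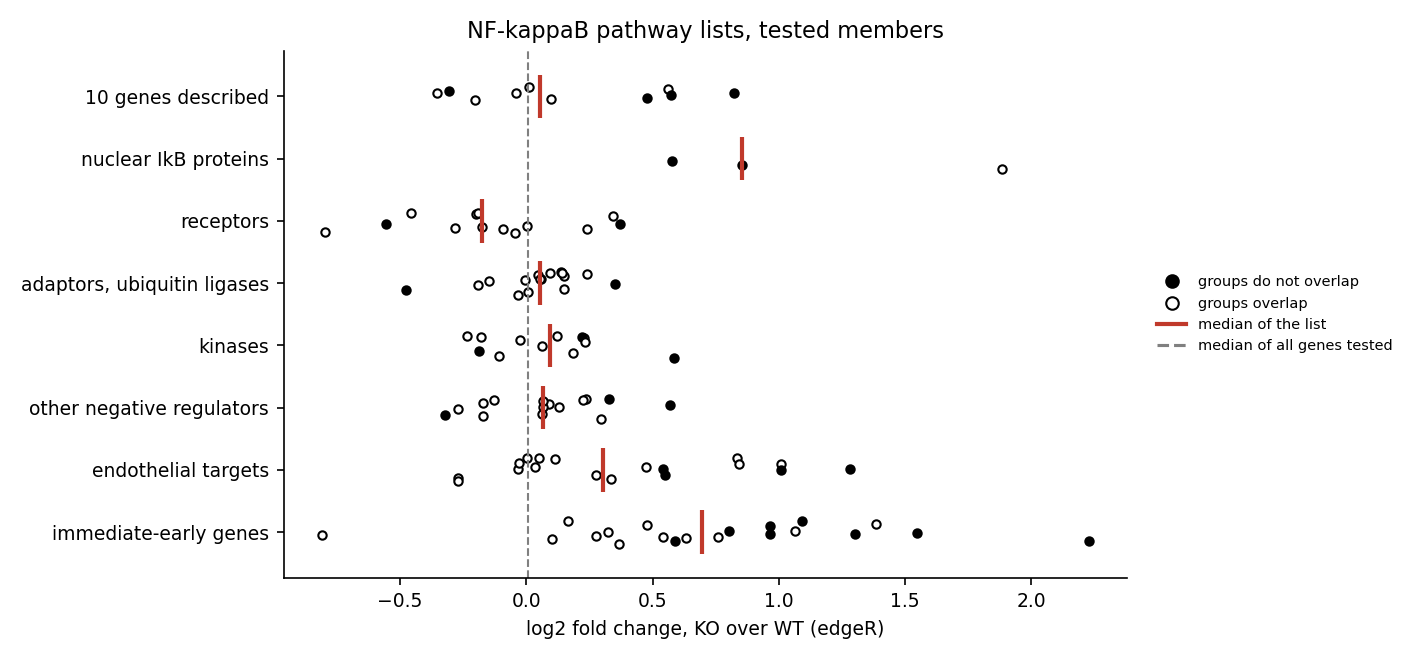
Log2 fold change of KO over WT for each tested gene of the 10 and of 7 further lists (edgeR); filled points are genes whose groups do not overlap, red lines are list medians and the dashed line is the median of all genes tested. The medians run from -0.17 for receptors to 0.85 for nuclear IkappaB proteins.

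The genes nearest in pattern to Nfkbia, Tnfaip3 and Tlr4 were found among genes of at least 5 CPM, by the root mean square difference of centred log2 CPM over the 6 libraries. For Nfkbia they were Colgalt2 (0.11), Gata2 (0.12), Per2 (0.14), Wnk4 (0.15) and Camsap1 (0.15). Gata2, an endothelial and blood transcription factor, was at 283, 635 and 409 CPM in the KO libraries and 237, 251 and 287 CPM in the WT libraries. Per2, a gene of the circadian clock, was at 39.3, 58.8 and 43.2 CPM in the KO libraries and 25.2, 29.0 and 28.4 CPM in the WT libraries (log2 fold change 0.77, SE 0.17, edgeR adjusted p = 0.266). For Tnfaip3 the nearest were Pinx1, Rhbdf1, Got1, Ttll12 and Agpat1, at 0.06 to 0.08. For Tlr4 they were Slc9a3r1, Dnajb4, Prdm10, Inpp4b and Cog8, at 0.07 to 0.09. Genes chosen for a pattern near that of a member share its difference between the labels by construction, so the values of Gata2 and Per2 are no separate result. None of these neighbours was another of the 10 genes. With 10092 genes compared, that says little on whether the 10 genes moved together.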

How the data were processed

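RNA from sorted lung endothelial cells was amplified from low input by SMARTer chemistry and sequenced as paired ends, per the labels' protocols. The authors deposited estimated counts per gene, in whole numbers and without normalization, and TPM values they computed, whose columns sum to 875864 to 885609. Per the submitters' processing notes, kallisto (version not listed) and mm10 were used; which annotation was used is not stated there. Symbols and coordinates came from GENCODE M21 (24298 of 24520 identifiers). Rounding changed 0 counts. The 6 libraries, grouped by title, were compared in R 4.3.3 with edgeR 4.0.16 (quasi-likelihood F test, TMM, filterByExpr by group, Benjamini-Hochberg at 0.05 over all genes tested) and limma 3.58.1. The SE is the log2 fold change's size divided by the square root of F. 3 counts per library are 0.0750 to 0.107 CPM; floors cover counting error only. Alternatives were DESeq2 1.42.0, limma-voom, other scalings and filters, limma on log2(TPM + 1) or log2(TPM + 0.1), a replicate block, a sex term read from Xist and Y-linked genes (1 female library under each label), and leaving out each library. The test was tried on simulated data.

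The members and lists were chosen with earlier results of these data known. Beside the 10 genes, each list's named genes were those past the threshold and the 2 with the highest CPM. Up to 3 without overlap between the groups and with at least 1 CPM were added, and not all named genes are described. Ly96, Cd14, Tlr1, Tlr7, Nfkbid, Ikbkb and genes that overlap members were named after their values were seen. So were the markers Mrc1, Itgax, Csf1r and Marco and the targets Icam1, Vcam1 and Selp.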

Additional observations from a re-analysis of the deposited data

How the results depend on the processing

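The number of the 10 genes called was 0 in every alternative run with edgeR or limma. DESeq2 called 2 (Nfkbia and Tlr4), so those calls rest on the choice of tool. Of 190 values of the 10 genes under 19 alternatives, 188 kept their side of the threshold, and 9 changed sign, all in Nfkb1, Nfkbib or Rel, whose log2 fold changes were near 0. Nfkbia ranged from 0.51 to 1.01 (adjusted p = 0.0429 to 0.664), Tlr4 from 0.51 to 0.66 (0.0494 to 0.625), Nfkb2 from 0.34 to 0.55 (0.22 to 0.693) and Nfkbie from -0.38 to -0.21 (0.346 to 0.79). The count of the 10 genes without overlap was 4 or 5 over the scalings and TPM, where 19.5% to 20.3% of all genes tested were without overlap. It was 4 to 6 with a library left out, where that share was 25.9% to 34.1% (32.8% at the count of 6, without WT replicate 1).

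Over all genes, 5 were called; DESeq2 called 407, limma on log2(TPM + 1) without a filter 2, and the sex term 2, and leaving out each library in turn gave 1 to 4. With the replicate number as a block 0 were called (1472 at an unadjusted p under 0.05), and Nfkbia and Tlr4 had log2 fold changes of 0.78 (adjusted p = 0.468) and 0.57 (0.469); with the sex term they were at 0.80 and 0.57. The numbers are not shown to pair the libraries: same-numbered libraries' deviations from their group means correlated at 0.28, -0.05 and -0.17 for numbers 1, 2 and 3. The causes of these changes were not tested. With 3 libraries per label, a p that misses the threshold does not show that a gene did not differ.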
